A study of Mus musculus with 2 samples.

Results

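The mir-379 to mir-410 cluster is a run of miRNA genes at the distal end of the imprinted Dlk1-Dio3 region of mouse chromosome 12. Its members were taken here by position alone, as every miRNA gene of the GENCODE M21 annotation on the plus strand that starts within a fixed span after the Meg3 and Rtl1-antisense genes. The rule gave 39 of the 2202 annotated miRNA genes. They run from Mir379 (start 109709060, mm10) to Mir3072 (end 109747960), over 38.9 kb. Mir3072 lies 4082 bases beyond Mir410, so the rule reaches 1 gene past the cluster's name. The nearest annotated miRNA gene before the span, Mir882, had no read in either library.

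A miRNA is cut from a hairpin precursor and guides the silencing of messenger RNAs that pair with its seed, bases 2 to 8 from its 5′ end. The miRNA genes of the Dlk1-Dio3 region are expressed from the maternal chromosome, and those of the distal cluster are thought to be cut from 1 long transcript. The cluster is known from brain: its transcription is raised by the activity-dependent factor Mef2 in neurons, and members such as miR-134, which limits the size of dendritic spines, act at the synapse.

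The tissue was cortex from the left side of the cerebrum, taken from males at an age of 2 months. The mice were B6CASTF1/J, a first-generation cross of C57BL/6J and CAST/EiJ, with no treatment named. Both libraries belong to 1 group, so no condition was compared. Library 1 came from the animal numbered 3 and library 2 from the animal numbered 4. The labels give both the same donor identifier, so that these were separate animals rests on those numbers, and the spread between the libraries may be technical.

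RNA fragments shorter than 30 nucleotides were sequenced, and the reads were counted per hairpin with both arms together. Sense-strand reads in miRNA genes numbered 3827158 in library 1 and 4553291 in library 2. Levels are given as CPM, counts per 1000000 of these reads. Each read stands for 1 mature-sized fragment, so levels of hairpins of different length were compared without dividing by length. Intervals cover counting error only and leave out the spread between libraries. Without molecular identifiers 1 molecule can give several reads, so the intervals may be too narrow even for counting error. All 5 listed neuronal miRNA genes were detected, with a summed level of 72350 CPM in library 1 and 47771 CPM in library 2. Mir132 held most of this sum (48515 and 30152 CPM), whereas Mir124a-1, a numbered copy of the genes for the neuronal miR-124, had 10 and 18 reads. Reads that map to several places count for no gene here, so the level of a miRNA with several gene copies cannot be read from such a count. The red blood cell genes Mir451a, Mir144 and Mir486 summed to 134 and 1549 CPM, and the liver miRNA Mir122 stood at 72.4 and 78.6 CPM.

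Mature sequences from RefSeq (GRCm38.p6, the assembly called mm10) were matched to 38 of the 39 members, in 71 entries, and every entry lay inside the annotated hairpin. Gm27379 is the member without an entry. Only a 5p arm is listed for Mir487b, Mir376c and Mir539, only a 3p arm for Mir485, and a single entry without a named arm for Mir453. Seeds of arms that are not listed are left out of the counts below. The first set belongs to the 5 genes with the highest mean level, which hold most of the cluster's reads. Capitals mark the seed, and each runs 5′ to 3′ on the plus strand.
miR-382-5p: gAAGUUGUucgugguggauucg
miR-382-3p: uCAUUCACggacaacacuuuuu
miR-541-5p: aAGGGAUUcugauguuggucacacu
miR-541-3p: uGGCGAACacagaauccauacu
miR-411-5p: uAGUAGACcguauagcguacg
miR-411-3p: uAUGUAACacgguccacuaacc
miR-379-5p: uGGUAGACuauggaacguagg
miR-379-3p: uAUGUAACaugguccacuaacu
miR-487b-5p: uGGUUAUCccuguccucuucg

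The second set holds the partners in the seeds that members share. The 71 entries carried 65 distinct seeds, and 6 of these were each held by a pair of members. The 3p arms of Mir379 and Mir411, shown above, are 1 pair, and miR-379-5p is paired with miR-1193-5p.
miR-1193-5p: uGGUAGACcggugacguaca
miR-758-5p: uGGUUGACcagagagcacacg
miR-1197-5p: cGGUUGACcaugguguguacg
miR-494-5p: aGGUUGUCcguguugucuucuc
miR-410-5p: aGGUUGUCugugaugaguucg
miR-496a-5p: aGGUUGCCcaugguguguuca
miR-453: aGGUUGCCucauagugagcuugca
miR-376b-5p: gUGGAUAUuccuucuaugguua
miR-376c-5p: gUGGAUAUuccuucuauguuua

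Many of these sequences begin alike. The letters GGUU stood within bases 1 to 8 of 13 of the 71 entries (18.3%), against 47 of all 1738 mouse mature entries in the same table (2.70%). The mature RNA was searched in its own sense only, and the motif was chosen after the sequences were seen. The members that carry it were Mir299a, Mir380, Mir1197, Mir758, Mir329, Mir494, Mir487b, Mir453, Mir154, Mir496a, Mir377, Mir409 and Mir410. A seed can also be shared outside the cluster, as for 11 of the 71 entries, among them that of miR-329-3p with miR-362-3p and that of miR-410-3p with miR-344d-3p. The levels of the GGUU genes covered much of the range of the cluster, from no read (Mir453) to 3984 CPM (Mir487b). These levels join both arms of a hairpin, so the part that belongs to the GGUU entry is not known.

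The cluster held 4.92% of the sense-strand miRNA reads in library 1 (188182 reads, 95% Wilson interval 4.90 to 4.94%) and 4.69% in library 2 (213537 reads, 4.67 to 4.71%). The mean was 4.80% ± 0.161 (SD, n = 2). Reads that map to several places are in neither the cluster's reads nor the total, so the share in all miRNA molecules is not known. A gene counted as detected when each library held at least 10 of its reads. This was so for 35 of the 39 genes (89.7%), against 406 of all 2202 genes (18.4%). Their median level was 393 CPM, beside 95.6 CPM over all detected miRNA genes. The detected proximal genes of the same region, described below, had a higher median, 940 CPM. The 5 highest genes held 64.8% of the cluster's reads in library 1 and 68.9% in library 2.

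**Figure D1:**
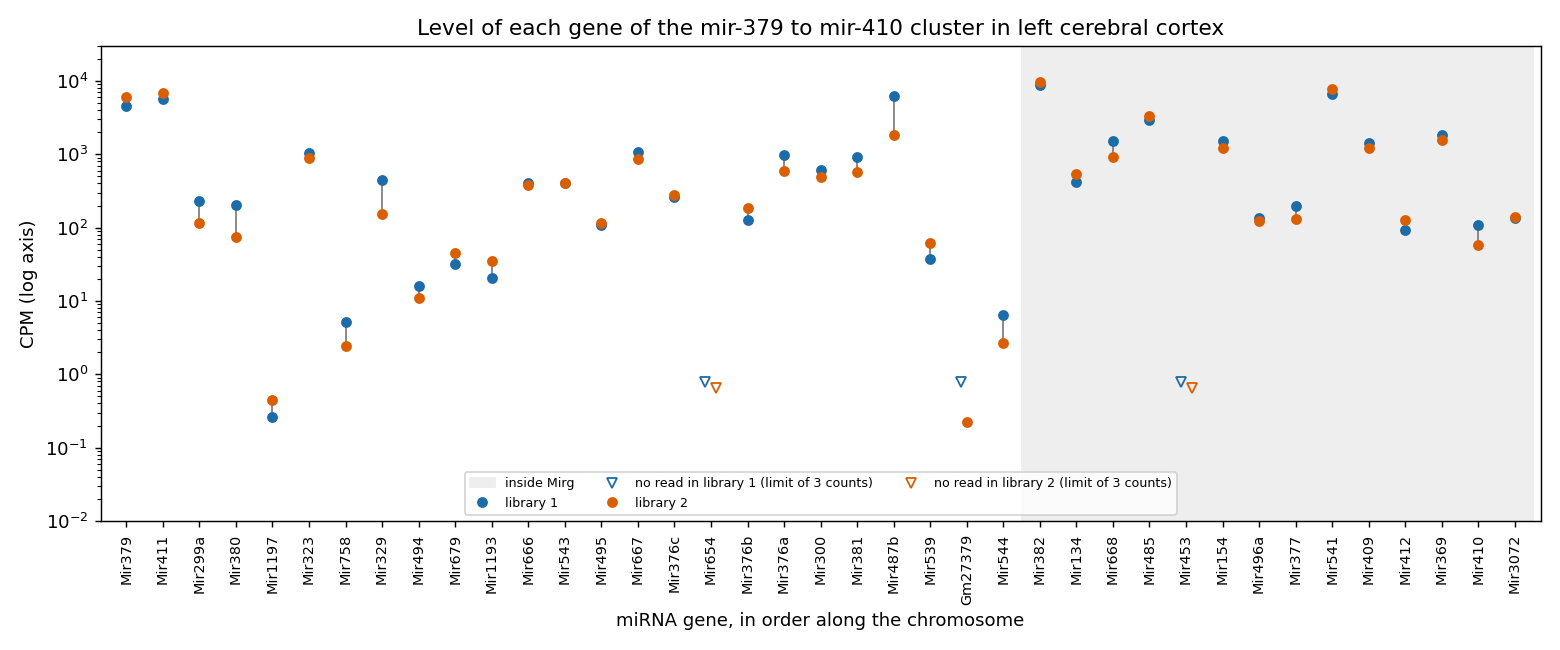
CPM on a log axis for each of the 39 genes in chromosome order, with 1 point per library, joined by a line where both have reads, and the part inside the host gene Mirg shaded. Open triangles mark a library without a read, at the limit that 3 counts allow; levels run from Mir382 at 8813 and 9762 CPM down to Mir654 and Mir453 without a read.

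Mir382 led the cluster (ENSMUSG00000065428.4; 109733771 to 109733846), with 33728 reads (8813 CPM) in library 1 and 44447 reads (9762 CPM) in library 2. It ranked 22 among all miRNA genes by mean level, in counts that leave out reads that map to several places. Mir541 (ENSMUSG00000076052.1; 109742409 to 109742498) followed at 6712 and 7793 CPM. Mir411 (ENSMUSG00000065477.3; 109710175 to 109710256) stood at 5613 and 6938 CPM. The values of Mir382 did not overlap those of Mir541 and Mir411, whereas those of Mir541 and Mir411 did.

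Mir379 (ENSMUSG00000065498.4; 109709060 to 109709125), the first gene of the cluster, had 4596 and 5984 CPM. Mir487b (ENSMUSG00000076219.1; 109727333 to 109727414) had 6147 and 1820 CPM, the widest gap of the high genes. Mir485, whose miRNA is known to act on the presynaptic side, had 2971 and 3281 CPM. Mir487b thus stood above Mir411 and Mir379 in library 1 and below Mir485 in library 2.

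Mir369 had 1845 and 1565 CPM, and Mir154, which gives its name to a family of related sequences in the cluster, had 1538 and 1220 CPM. Mir409 had 1406 and 1222 CPM. Mir668 had 1522 and 904 CPM. These 10 genes, all with a mean above 1000 CPM, were the 10 highest in each library taken alone.

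A middle group of 18 detected genes lay between 100 and 1000 CPM in the mean. Its upper part held Mir323 (972 CPM), Mir667 (968 CPM), Mir376a (785 CPM), Mir381 (745 CPM), Mir300 (551 CPM) and the dendritic Mir134 (478 CPM). Its lower part ran from Mir543 (409 CPM) through Mir666, Mir329, Mir376c, Mir299a, Mir377, Mir376b, Mir380, Mir3072, Mir496a and Mir495 to Mir412 (109 CPM). Mir134 had 416 and 541 CPM, a mean level 19.4-fold below that of Mir382, its neighbour 292 bases away.

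The remaining 7 detected genes were under 100 CPM. Mir410 had 108 and 58.6 CPM, Mir539 had 37.4 and 62.6 CPM, and Mir679 had 31.6 and 44.4 CPM. Mir1193 had 20.4 and 35.4 CPM. Mir494 had 61 and 50 reads, or 15.9 and 11.0 CPM.

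The lowest detected genes were Mir544, with 25 and 12 reads (6.53 and 2.64 CPM), and Mir758, with 20 and 11 reads (5.23 and 2.42 CPM). The mean level of Mir382 was 2431-fold that of Mir758, with 1686-fold in library 1 and 4041-fold in library 2. With a minimum of 50 reads, Mir758 and Mir544 drop out and the range is 690-fold.

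Of the 4 genes under the detection minimum, Mir1197 had 1 and 2 reads and Gm27379 had 0 and 1. Mir654 and Mir453 had none. A count of 0 allows up to 0.784 CPM in library 1 and 0.659 CPM in library 2, so Mir382 was at least 11243-fold and 14816-fold higher than either of them.

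The annotation places 25 members before the long non-coding gene Mirg, with no annotated host on their strand, and 14 inside it. Of those inside, 4 lie in an exon, 5 in an intron and 5 across an exon border of a Mirg transcript. The detected genes inside Mirg had a median of 1213 CPM (13 of 14 detected) and those before it 283 CPM (22 of 25 detected). Of the 10 genes above 1000 CPM, 7 lie in Mirg, and Mir379, Mir411 and Mir487b lie before it. Both sections held genes without a read, Mir654 before Mirg and Mir453 in an intron of it. The difference between the sections was not tested, because neighbouring genes of 1 locus are not independent.

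High and low genes alternated over short distances. At the distal end, 4 hairpins lie within 638 bases, and their mean levels were 1314 CPM (Mir409), 109 CPM (Mir412), 1705 CPM (Mir369) and 83.1 CPM (Mir410). Mir412 was 14.9-fold lower than Mir409 in library 1 and 9.81-fold lower in library 2, across 52 bases. It was 19.6-fold and 12.6-fold lower than Mir369, across 49 bases.

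The same held before Mirg. Mir323 was 200-fold and 372-fold higher than Mir758, 216 bases away, and Mir1197, with its 1 and 2 reads, lies 71 bases from Mir323 on the other side. Mir666 and Mir543 were the opposite case: they lie 74 bases apart and differed by 1.01-fold and 1.07-fold. Among 30 pairs of adjacent members that were both detected, 13 differed by more than 10-fold. Passing over members that were not detected, successive detected genes (34 pairs) differed by a median of 5.43-fold, beside 6.98-fold over all 595 pairs of detected members.

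Genes that share a seed often differed in level. Mir379 (5290 CPM) and Mir1193 (27.9 CPM) have the same 5p seed. The 5p seed of Mir496a (134 and 123 CPM) is also that of Mir453 (no read), whose entry names no arm. Mir410 and Mir494 had mean levels of 83.1 and 13.5 CPM. Mir379 and Mir411, which share the 3p seed, were close, at 1.22-fold and 1.16-fold apart. The counts join both arms, so how much of each level belongs to the shared seed is not known.

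Close copies were few. With a stretch of 20 or more bases in common as the limit, 6 members shared sequence with another annotated hairpin. Mir376c and Mir376b have 31 bases in common, which cover 18 bases of each 5p arm, as the lines above show. Mir376c had 264 and 275 CPM, and Mir376b had 128 and 183 CPM. A read that fits several places is given to no gene in count tables of this layout, so both values are uncertain.

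Mir411 and Mir758 share 21 bases, of which 12 lie in miR-411-3p and 9 in miR-758-3p, and Mir376b and Mir487b share 20. Mir299a shares its stretch with Mir299b, which is annotated on the opposite strand of the same place. The other 33 members share no such stretch with an annotated hairpin.

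All reads at the cluster were on the annotated strand. None of the 39 genes had an antisense read in either library, which allows up to 0.00159% of the cluster's 188182 reads in library 1 and 0.00140% of 213537 in library 2. Opposite 5 members the annotation holds another miRNA gene: Mir299b opposite Mir299a, Gm25750 opposite Mir380, Gm25252 opposite Mir376a, Gm44322 opposite Mir539 and Gm24321 opposite Mir409. These 5 genes had 0 sense reads in both libraries. In the column that ignores strand, such pairs cannot be told apart, and Mir299a, Mir380, Mir376a, Mir539 and Mir409 were all listed at 0. In library 1 this left out 5381 reads of Mir409 and 3755 of Mir376a.

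The libraries ranked the cluster's genes alike. Log2 CPM over the 35 detected genes gave Pearson's r = 0.975 and Spearman's rho = 0.974 as a description across genes that share a locus and a library. The median gap between the libraries was 1.30-fold, beside 1.28-fold over all detected miRNA genes. Within 1.5-fold lay 22 of the 35 genes (62.9%), beside 295 of all 406 (72.7%).

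An exact binomial test (two-sided) then set each gene's reads in library 1 against those in library 2, allowing for their totals. Its p-values were adjusted by Benjamini-Hochberg over the 508 miRNA genes that had at least 10 reads in the sum of the libraries. The test sets counting error alone against the difference between 2 libraries and speaks of no condition. It called 27 of 35 members (77.1%), beside 48.4% of all genes tested. Deep genes are called more often: among genes with a mean of 100 CPM or more, 22 of 28 members (78.6%) and 85.4% of all such genes were called. Library 1 was higher at 16 called members (45.7%, beside 25.2% of all genes tested) and library 2 at 11 (31.4%, beside 23.2% of all). Of the 27, 15 differed by less than 1.5-fold.

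**Figure D2:**
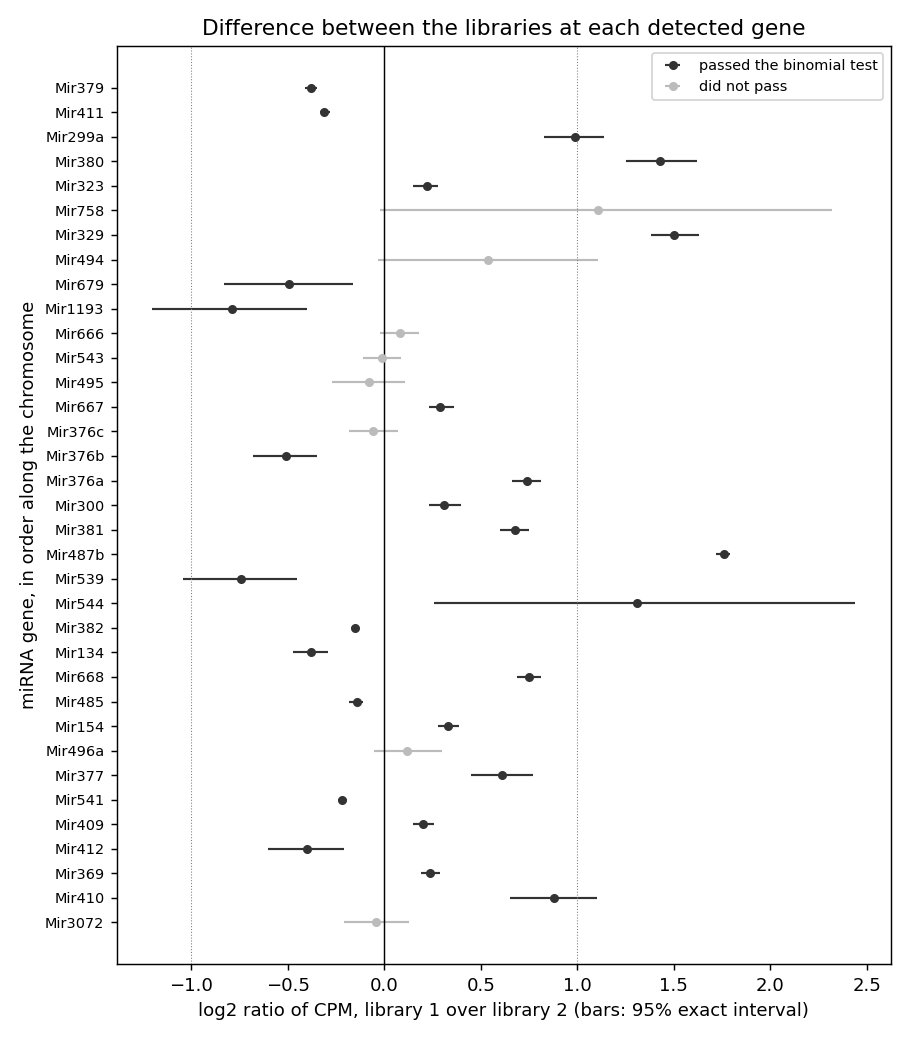
Log2 ratio of CPM, library 1 over library 2, for the 35 detected genes in chromosome order, with 95% exact intervals. Dark points passed the binomial test; the dotted lines at -1 and 1 mark 2-fold, and all 5 genes beyond them lie to the right, with Mir487b at 1.76.

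A 2-fold gap or more was reached by 5 detected members, all higher in library 1, where 6.90% of all 406 detected genes were 2-fold higher, and by none in library 2, where 3.20% were. Mir487b had 23527 reads in library 1 and 8287 in library 2. Its log2 ratio was 1.76 (95% exact interval 1.72 to 1.79), or 3.38-fold. Mir487b made up 12.5% of the cluster's reads in library 1 and 3.88% in library 2.

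Mir329 had 440 and 155 CPM (2.84-fold, adjusted p = 3.89e-131 by the exact binomial test). Mir380 had 201 and 74.7 CPM (2.70-fold, adjusted p = 2.70e-56 by the same exact test). Mir544, with 25 and 12 reads, passed at 2.48-fold (exact adjusted p = 0.0179). Mir758, with 20 and 11 reads, did not (2.16-fold, exact adjusted p = 0.0895). All 5 lie before Mirg, and Mir299a, 1.58 kb after the start of Mir379, came just short of the limit (232 and 117 CPM, log2 ratio 0.99). Summed levels of cell type marker lists differed between the same libraries. Genes within the neuron list and within the red blood cell list did not all go 1 way. Those within the oligodendrocyte, the microglia and leukocyte, and the vessel lists did, though Mir142 differed by only 1.04-fold. The sums were higher in library 1 for neurons (72350 and 47771 CPM) and oligodendrocytes (4975 and 3461 CPM, both genes detected), and for microglia and leukocytes (2128 and 1705 CPM, 3 of 4 detected, with Mir223 at 61 and 8 reads). They were higher in library 2 for red blood cells (134 and 1549 CPM, 3 of 3 detected) and vessels (14101 and 18353 CPM, 2 of 2 detected). Of the neuronal genes, Mir132 (48515 and 30152 CPM) and Mir128-1 (13881 and 6392 CPM) set the direction of the sum. Mir137 had 5517 and 5176 CPM, whereas Mir138-1 was higher in library 2 (4434 and 6046 CPM). Mir124a-1 had 2.61 and 3.95 CPM on 10 and 18 reads, without any reads that map to several places. The red blood cell sum in library 2 was mostly Mir451a (58.3 and 1419 CPM). Mir144 was also higher there (24.6 and 96.0 CPM), and Mir486 was higher in library 1 (51.0 and 34.7 CPM). The part of these cell types in the members' differences was not tested.

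The members higher in library 2 differed by less. Mir1193 had the largest such ratio (log2 ratio -0.79, interval -1.20 to -0.40), followed by Mir539 (-0.74), Mir376b (-0.51) and Mir679 (-0.49). Of the 5 highest genes, Mir382, Mir541, Mir411 and Mir379 were all higher in library 2, by log2 ratios of -0.15, -0.22, -0.31 and -0.38. Mir666, Mir543, Mir495, Mir376c, Mir496a, Mir3072, Mir494 and Mir758 did not pass.

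Neighbours differed in direction too. Mir376b was lower in library 1 (128 and 183 CPM) and Mir376a, 241 bases on, higher (981 and 589 CPM). Mir668 was higher in library 1 (1522 and 904 CPM), while Mir485, 104 bases on, was slightly lower (2971 and 3281 CPM). Between successive detected genes the log2 ratio differed by a median of 0.62, and over all pairs by 0.64. The SD of the log2 ratio was 0.66 over the 35 members and 0.71 over all 406 detected genes.

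The spread between the libraries was then allowed for, but it was fitted to the same libraries and so takes in the difference under test. With 1 library on each side, the outcome cannot tell which binomial calls would hold in other libraries. The exact test of edgeR, run with 1 dispersion for all genes (a coefficient of variation of 33.3% fitted to the same libraries), called 0 of 35 members and 0.787% of all 508 genes. The binomial test, at an unadjusted p under 0.05, held 28 of 35 members, beside 265 of all 508 genes. In edgeR's exact test the largest log2 ratios among the members were 1.77 (Mir487b), 1.52 (Mir329) and 1.45 (Mir380). The smallest adjusted p of a member by this exact test was 0.499, for Mir487b.

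**Figure D3:**
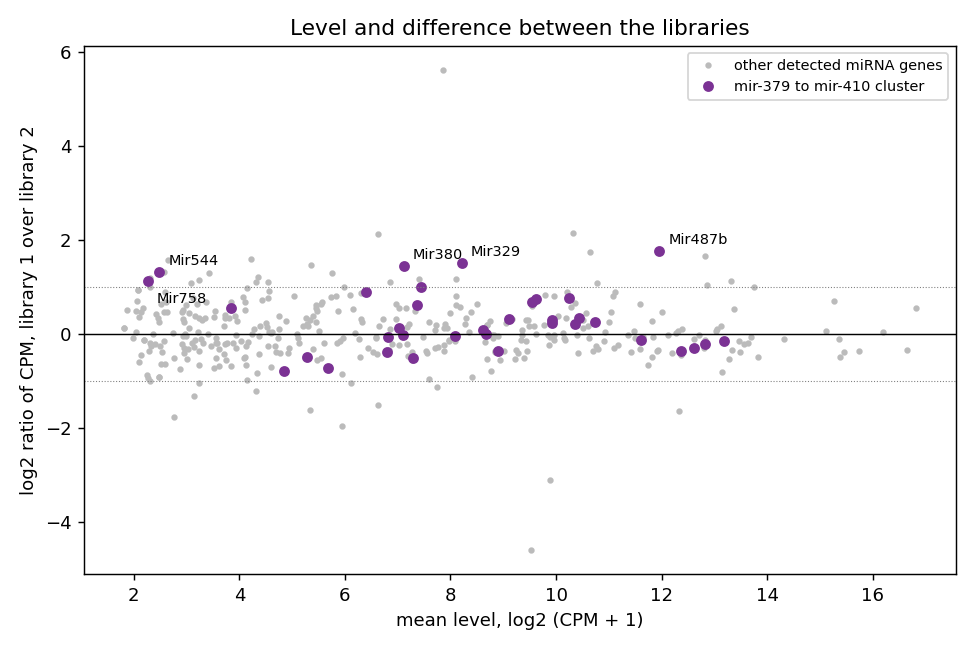
Log2 ratio of CPM, library 1 over library 2, against mean level for all 406 detected miRNA genes, with the 35 cluster genes in purple and those 2-fold or more apart named. The cluster's genes lie among the other genes, with Pearson's r of -0.13 between level and ratio.

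The ratio between the libraries showed little relation to level or base composition. Over the 35 members, Pearson's r between log2 level and log2 ratio was -0.13, and between hairpin GC content and log2 ratio -0.07. GC content and level gave 0.03. By section, r of the ratio with level and with GC content was -0.05 and 0.05 before Mirg and -0.26 and -0.31 inside it. Over the 16 detected proximal genes of the region it was -0.65 and -0.46, and over all 406 detected genes -0.02 and -0.01. These are descriptions across genes that share 1 locus and the same pair of libraries. The hairpins ranged from 29.1% GC (Mir376c) to 72.3% (Mir3072), with a median of 43.6%, beside 50.8% over all miRNA genes.

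The direction of the difference in the cluster's share rested on 1 gene. With all members, library 1 was higher (log2 ratio 0.07, 95% exact interval 0.06 to 0.08). Without Mir487b the shares were 4.30% and 4.51%, and library 2 was higher (log2 ratio -0.07, -0.08 to -0.06). The section before Mirg held 2.33% and 2.00%, but 1.71% and 1.82% without Mir487b. The section inside Mirg held 2.59% and 2.69%.

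**Figure D4:**
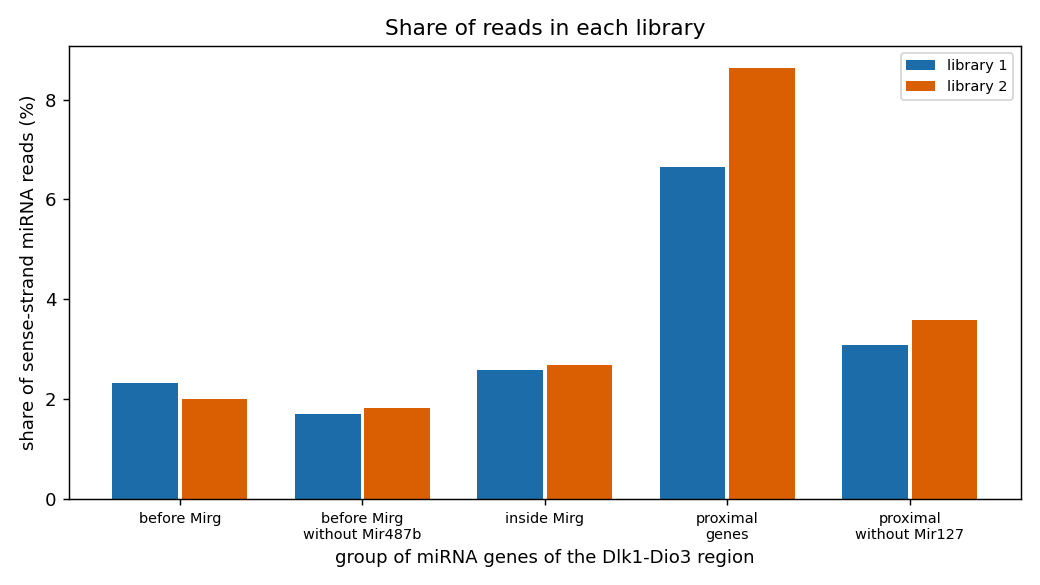
Share of sense-strand miRNA reads in percent, with 1 bar per library from 0, for the cluster genes before and inside Mirg and for the proximal genes, also without Mir487b and Mir127. The proximal genes stand at 6.65% in library 1 and 8.64% in library 2, and the section before Mirg at 2.33% and 2.00%, or 1.71% and 1.82% without Mir487b.

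The proximal genes of the same region, 20 miRNA genes from Mir1906-1 to Mir882, held 6.65% of library 1 and 8.64% of library 2 (7.64% ± 1.40, SD, n = 2). Without Mir127 their shares were 3.09% and 3.59%. Their summed share thus lay further apart than that of the cluster, but single proximal genes lay closer together than single members before Mirg. The median gap was 1.21-fold at the 16 detected proximal genes and 1.30-fold at the 35 members, and the SD of the log2 ratio was 0.42 and 0.66. Within 1.5-fold lay 14 of the 16 proximal genes (87.5%) and 22 of the 35 members (62.9%), and 0 proximal genes and 5 members were 2-fold or more apart. The members inside Mirg were near the proximal genes, with a median gap of 1.18-fold, an SD of 0.42, 76.9% within 1.5-fold and 0 genes 2-fold apart. Those before Mirg had a median gap of 1.44-fold, an SD of 0.76, 54.5% within 1.5-fold and all 5 of the 2-fold genes. These are descriptions, and the difference between the blocks in gene-by-gene spread was not tested. Their highest genes were Mir127 (35649 and 50487 CPM), Mir433 (11804 and 13597 CPM) and Mir770 (9853 and 12994 CPM), each higher in library 2. Of the 20, 16 were detected. The exact binomial test called 11 of these 16, 6 higher in library 1 and 5 lower. Beside this stand 48.4% of all genes tested and 85.4% of those with a mean of 100 CPM or more.

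Per read of the proximal genes, the cluster had 0.739 reads in library 1 and 0.543 in library 2. The ratio of these was 1.361 (95% interval 1.350 to 1.372, counting error only). Without Mir487b and Mir127 it was 1.109 (1.098 to 1.120). The balance between the blocks thus differed between the libraries in the same direction with and without those genes, by a smaller amount without them. With 1 library on each side, no replicate checks this difference.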

How the data were processed

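Small RNA from 2 libraries of 1 group was analysed. The authors deposited whole-number read counts per miRNA gene, with 3 count columns and 4 tally rows per library, not normalized. The build is mm10 per the labels, and the annotation GENCODE M21 per the description deposited with the counts. Aligner, version and trimming: not given in the sources used here. The layout is that of STAR's gene counts, where reads that map to several places count for no gene. Tally rows stayed out of totals. They held 19.6% and 18.9% unmapped reads, 41.7% and 41.1% mapped to several places, 5.03% and 4.94% outside miRNA genes, and 0 and 1 ambiguous, out of 11372894 and 12980686 reads.

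The sense-strand column gave CPM. Log2 mean levels used a pseudocount of 1 CPM, and so did the median folds between successive detected genes and over all pairs. Other CPM ratios and folds used none, nor did the log2 CPM correlated between the libraries. The two-sided exact binomial test ran over all genes with 10 or more reads in total, with a threshold of 0.05 on adjusted p. EdgeR 4.0.16 (R 4.3.3) gave TMM factors and the exact test, since its quasi-likelihood test needs residual degrees of freedom, and DESeq2 1.42.0 gave size factors. Python 3.11.15, scipy 1.17.1 and pandas 2.3.3 did the rest. The binomial test and edgeR's estimate of the common dispersion were checked on simulated data. As alternatives, the strand-ignoring column was used, and other denominators, scalings and count minimums, and each library or single genes were left out.

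The members and lists were chosen with earlier results of these data known. Every member is named, with values in each library for the 10 highest, the 5 lowest detected, the markers Mir382, Mir494, Mir409, Mir376a and Mir487b, members 2-fold or more apart, those without a read, and those sharing a seed or a stretch of 20 bases. Other members are examples chosen after their values were seen. Arms, edited bases and parental alleles were not analysed here.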

Additional observations from a re-analysis of the deposited data

Results flagged for a closer look

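Reads that mapped to several places, a tally outside the gene counts, made up 41.7% of all reads in library 1 and 41.1% in library 2. How many of them came from the cluster is not known. Among its members, Mir376b and Mir376c share the longest stretch, 31 bases.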

How the results depend on the processing

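The cluster's mean share of 4.80% became 1.65% with all reads as the denominator, 3.87% without Mir382, 3.72% without the 6 members that share a stretch with another hairpin and 4.41% without Mir487b, an alternative chosen after seeing the data; each follows from the reads left in or out. The median level of the detected members, 8.62 on the log2 scale, became 8.76 in the column that ignores strand, where 5 members have no reads, and 7.09 with all reads as the denominator. In the same column the median log2 ratio went from 0.20 to 0.10. The fold range of 2431 became 690 with a minimum of 50 reads. The count of 27 members that differed became 0 with edgeR's exact test. With each library left out in turn, the share of reads in the 5 highest members, chosen anew, was 64.8 to 72.0%. Leaving out a library left no comparison between them. The ratio of Mir543, -0.01 in the log2 scale, turned to 0.00 with the opposite sign under TMM scaling and in edgeR's exact test, without passing the binomial test. TMM and DESeq2 scaling moved all log2 ratios by 0.02 and -0.04, and the other directions and binomial calls of the 35 members stayed as they were under both. No paired analysis was possible because there is 1 group. Depth limits the genes with few reads, such as Mir758, Mir544, Mir1197 and Gm27379.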
